A study of Mus musculus with 77 samples.

Results

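The miRNAs bound to AGO2 were compared between mice resilient to chronic social defeat stress (CSDS) and undefeated controls, in the BNST (bed nucleus of the stria terminalis). All 10 control and resilient AGO2 miRNA pools were used, 5 of each, out of 77 samples in the series, and all 788 rows of the deposited miRNA table were tested. The mice were B6 males (C57BL/6Crl in the labels, C57BL/6NCrl in the paper) aged 8 weeks at dissection. Resilient mice had been defeated daily for 10 days by CD-1 aggressors. In a social avoidance test they did not avoid an unfamiliar mouse, by a cutoff set from controls. The paper states that resilient mice with the highest social interaction ratios were profiled, and controls with ratios closest to the mean. This ratio compares time near an unfamiliar mouse with time near an empty cylinder. Controls had lived beside a changing, unfamiliar neighbour without physical contact. BNST tissue was taken 6 to 8 days after the last defeat, and each library came from the BNST of 3 mice pooled before AGO2 was pulled down, so the spread between pools is not the spread between mice. Another 3 AGO2 miRNA pools came from susceptible B6 mice, which had avoided the unfamiliar mouse. Only 1 strain, 1 sex and, among defeated mice, phenotypic extremes were sampled. The labels do not say which cells of the BNST the AGO2 came from.

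A miRNA is a short RNA that guides an Argonaute protein to messenger RNAs carrying a match to its seed, bases 2 to 8 from its 5′ end, and the bound messages are repressed. AGO2 is the Argonaute most often used to pull down miRNAs together with their targets, so a miRNA recovered with it had been loaded. Each hairpin precursor can yield a mature miRNA from its 5′ arm (5p) and from its 3′ arm (3p). The BNST is a forebrain region of the extended amygdala that takes part in sustained anxiety and in the stress response.

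The sequences below carry the differences described next. They are mature miRNAs from RefSeq (GRCm38.p6), written 5′ to 3′ with the seed in capitals, and 686 of the 788 rows had such an entry. The first pair are the miRNAs with the strongest statistical difference. Mir485 lies on chromosome 12 in an exon of the lincRNA Mirg, and mature miR-485-3p spans chr12:109734946-109734967 on the plus strand. The let-7d-3p sequence spans chr13:48536024-48536045 on the minus strand, in an exon of the lincRNA 6720427I07Rik.
miR-485-3p: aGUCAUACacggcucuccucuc
let-7d-3p: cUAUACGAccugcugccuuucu

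The let-7 family shares the seed GAGGUAG, and its members differ from let-7a at 1 to 4 of the remaining bases. The next lines show the members with a called decrease in at least 1 row (a, c, e and f) before 3 of those without (d, g and i). let-7f-5p was not called when its copies were summed, and let-7b-5p and miR-98-5p, with the same seed, were not called either.
let-7a-5p: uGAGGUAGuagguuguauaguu
let-7c-5p: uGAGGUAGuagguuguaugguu
let-7e-5p: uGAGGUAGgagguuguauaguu
let-7f-5p: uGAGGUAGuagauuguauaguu
let-7d-5p: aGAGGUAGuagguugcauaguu
let-7g-5p: uGAGGUAGuaguuuguacaguu
let-7i-5p: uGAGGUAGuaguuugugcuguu

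Among the miRNAs that were higher in resilient pools, 2 seeds occurred in more than 1 called miRNA, that of miR-146 and that of miR-30, which miR-384-5p also carries.
miR-146a-5p: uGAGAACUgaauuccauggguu
miR-146b-5p: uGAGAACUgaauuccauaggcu
miR-30e-5p: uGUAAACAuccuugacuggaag
miR-384-5p: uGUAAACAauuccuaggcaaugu

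Each control pool had between 3173294 and 4565205 miRNA reads (median 3877245) and each resilient pool between 3839603 and 9404828 (median 6233158), so the resilient libraries were the deeper ones. No pair of libraries of a group agreed within sampling noise. The neuronal miRNAs miR-132-3p and miR-128-3p were abundant, at group means of 14.24 and 14.66 log2 CPM in controls, where CPM are reads scaled to the size of each library. Other members of the neuronal list were hardly recovered. The only row of miR-124-3p had 0 reads in 8 of the 10 pools and 7 in each of the other 2. miR-9-5p had 0 to 27 reads per pool, and the group means of miR-9-5p were 0.91 and -0.31 log2 CPM. These mature miRNAs come from several hairpins, and how their reads were assigned is not given in the sources used here, so the order of abundance holds for the deposited rows only. Marker miRNAs of muscle summed to 6.44 to 13.8 CPM in controls and 8.54 to 12.9 CPM in resilient pools. Over both groups the most abundant deposited rows were miR-434-3p, let-7e-5p, miR-22-3p, miR-30a-5p and let-7d-5p, none of the 5 below a mean of 15.26 log2 CPM.

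In resilient pools against controls, 75 of 788 miRNAs had a p under 0.05 together with a change of 1.2-fold or more and were called differentially expressed (9.52% of those tested), 31 higher (3.93%) and 44 lower (5.58%). After adjustment over all 788 rows with limma, 2 remained (0.254%), miR-485-3p and let-7d-3p, both lower. At an unadjusted p under 0.05 there were 96 (12.2%). The median difference over all miRNAs was -0.01 on the log2 scale. All resilient pools lay above all control pools for 10 rows (1.27%) and below them for 15 (1.90%), together 3.17% of rows. Of the 31 higher rows, 25 came from the 5p arm and 4 from the 3p arm, against 19 and 23 of the 44 lower rows, where the table held 378 5p and 367 3p rows. Calls were more frequent among well measured miRNAs, with 17.5% of the 137 rows at 9 log2 CPM or more, 15.4% of the 182 rows between 5 and 9, and 4.88% of the 287 rows under 2. The split of calls into higher and lower depended on scaling. It was 47 higher and 36 lower when voom was run anew on the recovered reads, and 43 and 36 after quantile normalization.

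**Figure D1:**
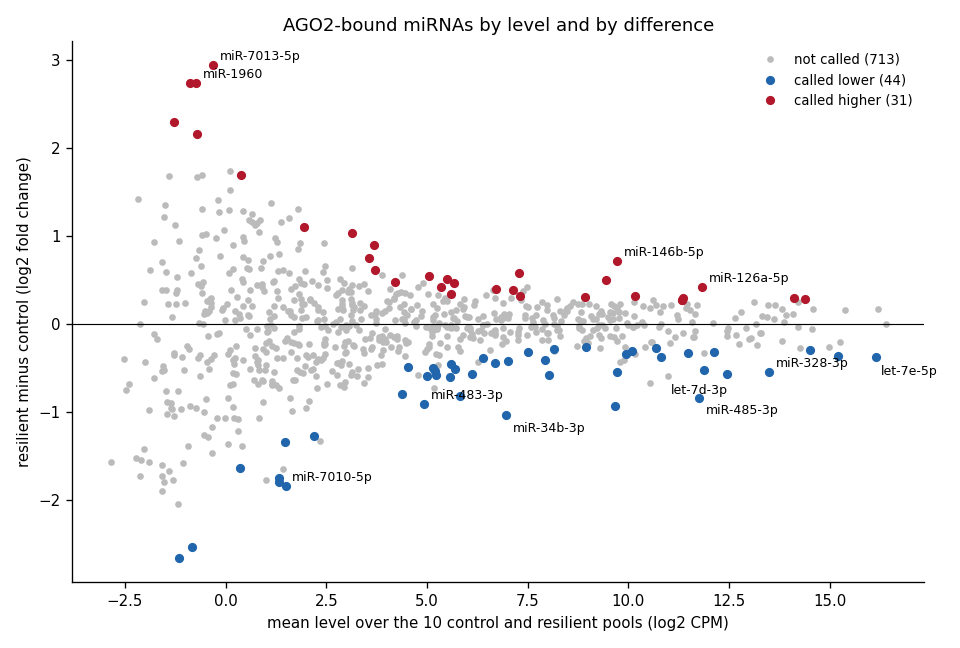
Mean level of each of 788 AGO2-bound miRNAs over the 10 control and resilient pools (x, log2 CPM) against the difference of resilient from control pools (y, log2 fold change). Red and blue points are the 31 rows called higher and the 44 called lower, and differences beyond 1.1 in either direction occur only below about 5 log2 CPM.

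The strongest difference was that of miR-485-3p, a brain-enriched miRNA from the imprinted Dlk1-Dio3 domain. Its level was 12.15, 12.14, 12.01, 12.15 and 12.40 log2 CPM in the control pools and 11.15, 11.31, 11.65, 11.42 and 11.12 in the resilient pools. Every resilient pool was below every control pool, and the group means were 12.17 ± 0.14 and 11.33 ± 0.21 (SD, n = 5 each). The log2 fold change was -0.84 with a standard error of 0.12 (limma, adjusted p = 8.9e-04). The 3 susceptible pools, at 12.25, 11.81 and 11.73 log2 CPM, reached into the control range at their highest value. Their log2 difference was -0.24 from controls and 0.60 from the resilient pools (unadjusted p = 3.5e-04 and adjusted p = 0.28 for the latter, limma).

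The other arm of the same hairpin was not called. miR-485-5p was at 11.56 ± 0.15 log2 CPM in controls and 11.59 ± 0.11 in resilient pools (SD, n = 5 each), with a log2 fold change of 0.03 and a standard error of 0.10. In all 5 control pools the 3p arm exceeded the 5p arm, by 0.41 to 0.97 log2 units. In 4 of the 5 resilient pools it was below the 5p arm, with differences from -0.52 to 0.09. The change in this arm difference was -0.86 log2 units, with no overlap between the groups. The arms of this hairpin and of let-7d were compared because their 3p arms had the smallest p, so these arm differences are descriptions with no test.

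For let-7d-3p the control pools lay at 12.67, 12.77, 12.82, 12.69 and 12.75 log2 CPM and the resilient pools at 11.99, 12.15, 12.22, 12.29 and 12.19. These groups did not overlap either, and the means were 12.74 ± 0.06 and 12.17 ± 0.11 (SD, n = 5 each). The log2 fold change was -0.57 with a standard error of 0.08 (limma, adjusted p = 8.9e-04). Susceptible pools were between the other groups, at 12.61, 12.48 and 12.34 log2 CPM, with a log2 difference of -0.26 from controls. The 5p arm of the same hairpin, let-7d-5p, differed less from controls, with a log2 fold change of -0.21 and a standard error of 0.09, a size under the fold threshold. The 3p arm was 2.62 ± 0.14 log2 units below the 5p arm in controls and 2.98 ± 0.14 below it in resilient pools (SD, n = 5 each).

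**Figure D2:**
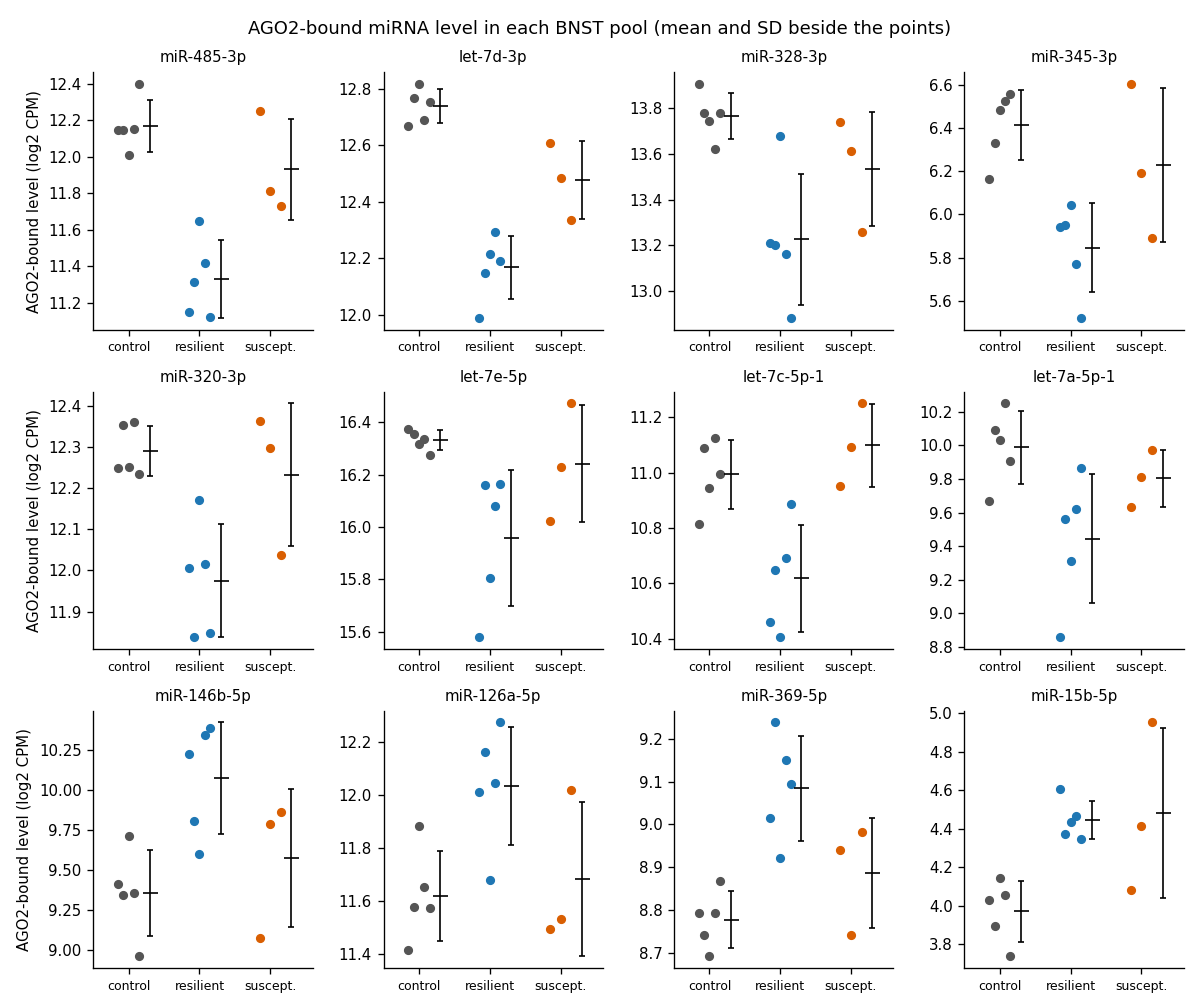
AGO2-bound level (log2 CPM) of 12 miRNAs in each control (grey), resilient (blue) and susceptible (orange) BNST pool, with the mean and SD of the group beside its points and a separate y axis, not starting at 0, for each miRNA. The groups do not overlap between control and resilient pools for miR-485-3p, let-7d-3p, miR-345-3p, miR-320-3p, let-7e-5p, miR-369-5p and miR-15b-5p. Resilient pool 3 alone lies inside the control range for miR-328-3p, miR-146b-5p and miR-126a-5p.

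Members of the let-7 family repress growth and proliferation genes and accumulate as neurons mature. Of the 23 let-7 rows, 6 fell and 0 rose by the criteria above, where 5.58% and 3.93% of all miRNAs did. The median log2 fold change was -0.18 against -0.01 for all miRNAs. In susceptible pools against the same controls these medians were -0.12 and -0.01, and 0 let-7 rows were called. Of all rows, 1.52% were called higher and 3.17% lower in that comparison, which had only 3 susceptible pools. The 23 rows include 10 from the 3p arm, which lack the shared seed, and 1 of these was called lower. All let-7 rows together summed to 197775 to 212037 CPM in control pools and 151633 to 194978 CPM in resilient pools. Abundant rows weigh most in this sum, among them let-7e-5p and let-7d-5p, the latter not called. The sum over all miRNAs had a median of 1028050 CPM in control pools and 989288 CPM in resilient pools. The most abundant member was let-7e-5p, transcribed from an intron of Spaca6 (chr17:17830366-17830387, plus strand). Its levels were 16.37, 16.36, 16.32, 16.34 and 16.28 log2 CPM in controls and 15.58, 16.16, 15.81, 16.08 and 16.16 in resilient pools. The groups did not overlap, and the spread was wider among resilient pools (SD 0.26) than among controls (SD 0.04). The log2 fold change was -0.37 with a standard error of 0.12 (limma, adjusted p = 0.26). The call was lost with quantile normalization (-0.26, under the fold threshold) and with depth as a covariate (-0.32).

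Some let-7 rows are separate hairpin copies that give the same mature sequence, and reads were assigned between copies by the authors' counting, so these copies are uncertain one by one. let-7a-5p copy 1 fell by 0.54 on the log2 scale, whereas copy 2, with identical letters, was at -0.25 and was not called. With the reads of both copies summed, let-7a-5p was at -0.45, with a standard error of 0.14 (limma, adjusted p = 0.25). let-7c-5p fell by 0.38 and 0.31 in its 2 copies and by 0.35 in their sum. For copy 1 of let-7c-5p, the control pools lay at 10.81 to 11.13 log2 CPM, the resilient pools at 10.41 to 10.89 and the susceptible pools at 10.95 to 11.25, above all resilient pools. let-7f-5p copy 1 fell by 0.34, but the sum of its copies was at -0.19 and was not called. let-7g-5p, at a log2 difference of 0.02 with a standard error of 0.11, and let-7i-5p, at -0.06 with a standard error of 0.10, are both abundant and were not called.

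**Figure D3:**
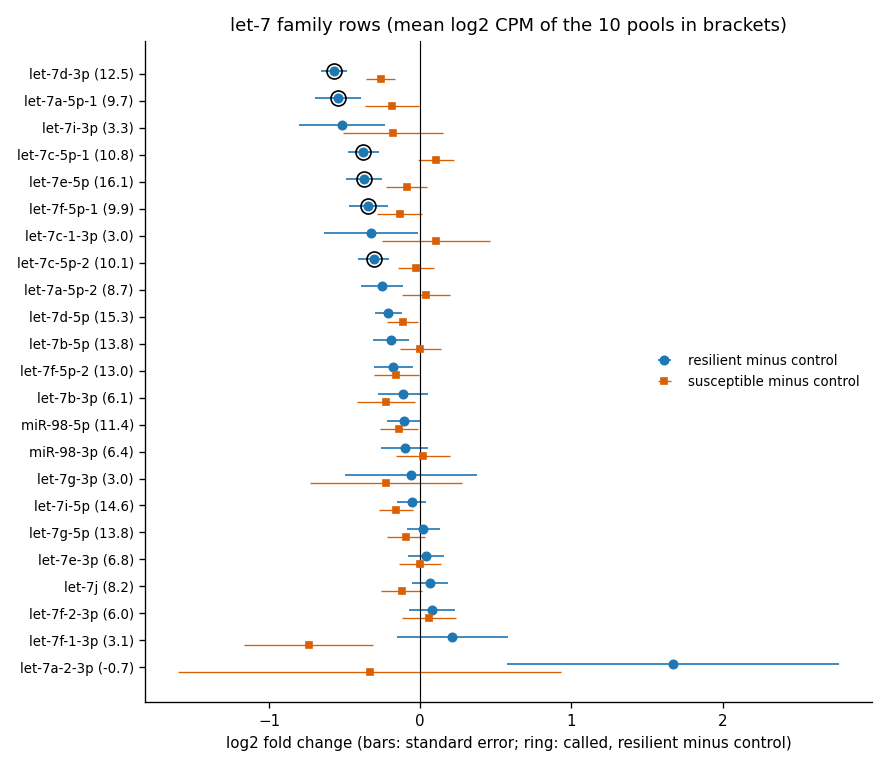
Log2 fold change of the 23 let-7 family rows in resilient (blue circles) and susceptible (orange squares) pools, each against the same 5 control pools, with standard errors and the mean log2 CPM of each row in brackets. Rings mark the 6 rows called lower in resilient pools, and the rows at 13.8 to 14.6 log2 CPM (let-7b-5p, let-7g-5p and let-7i-5p) carry no ring.

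Besides miR-485-3p and the let-7 family, the lower miRNAs with the smallest p were miR-328-3p, miR-483-3p, miR-345-3p, miR-7052-3p, miR-8114, miR-320-3p and miR-7010-5p. miR-328-3p stood at 13.91, 13.78, 13.74, 13.62 and 13.78 log2 CPM in controls and at 13.21, 13.20, 13.68, 13.16 and 12.88 in resilient pools. Resilient pool 3 alone lay within the control range. Its log2 fold change was -0.54 with a standard error of 0.13 (limma, adjusted p = 0.11). miR-320-3p, which is made without the Drosha step, was at 12.29 ± 0.06 log2 CPM in controls and 11.98 ± 0.14 in resilient pools, without overlap (SD, n = 5 each). Quantile normalization brought its log2 fold change from -0.31 to -0.16 and ended the call. miR-345-3p was at 6.41 ± 0.16 and 5.84 ± 0.21 log2 CPM, also without overlap. miR-483-3p, encoded in an intron of Igf2, was at 5.38 ± 0.52 and 4.47 ± 0.41 log2 CPM (SD, n = 5 each), with an adjusted p of 0.17 (limma).

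Of the higher miRNAs, miR-146b-5p had the smallest p. It lay at 9.41, 9.34, 9.72, 9.36 and 8.96 log2 CPM in controls and at 10.23, 9.81, 9.60, 10.34 and 10.39 in resilient pools. Only resilient pool 3 fell inside the control range. The log2 fold change was 0.72 with a standard error of 0.18 (limma, adjusted p = 0.14). miR-146a-5p, which has the same seed and is encoded on another chromosome (11 as against 19), rose by 0.57 with a standard error of 0.20, from 7.00 ± 0.20 to 7.57 ± 0.47 log2 CPM (SD, n = 5 each). Both miR-146 miRNAs are known to dampen inflammatory signalling. In the microglial and leukocyte list, miR-146a-5p was the only called row of 7, where 9.52% of all miRNAs were called. The other rows were at log2 differences from -0.33 (miR-150-5p) to 0.79 (miR-223-3p), and the list summed to 4064 to 5439 CPM in controls and 2939 to 5148 CPM in resilient pools. miR-21a-5p, induced in many injury and inflammation settings, rose by 0.29 with a standard error of 0.10, from 11.20 ± 0.15 to 11.49 ± 0.15 log2 CPM (SD, n = 5 each). Its call was lost without control pool 1 or resilient pool 2 or 5, at 0.23 to 0.26, and after removal of a GC trend, at 0.15.

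miR-126a, the endothelial miRNA encoded within Egfl7, rose in both arms. miR-126a-5p was at 11.41, 11.58, 11.88, 11.65 and 11.57 log2 CPM in controls and 12.01, 12.16, 11.68, 12.04 and 12.27 in resilient pools. Resilient pool 3 was again the one inside the control range. Its log2 fold change was 0.41 with a standard error of 0.12, and that of miR-126a-3p was 0.32 with a standard error of 0.12 (limma, adjusted p = 0.22 and 0.30). The 3p arm lost its call without control pool 2 (0.27) or resilient pool 2 (0.25), and by its size after removal of a GC trend (0.26). The smooth muscle rows of the list were not called, with miR-143-3p at 0.25, miR-143-5p at -0.21, miR-145a-5p at -0.17 and miR-145a-3p at -0.05. Of the 6 vascular rows, 2 were called higher, where 3.93% of all miRNAs were. An unadjusted p under 0.05 (limma) was reached by 3 of them, where 12.2% of all miRNAs reached it. A smooth muscle row thus missed the call by its size alone. The vascular list as a whole summed to 18924 to 26040 CPM in controls and 20649 to 30774 CPM in resilient pools, and the part of vessel content in the miR-126a values was not tested. Of the 6 red blood cell rows, 2 were called higher, where 3.93% of all miRNAs were, and the list was split into 3 positive and 3 negative values, with a median of 0.13. miR-144-5p rose by 0.51 (standard error 0.20) and miR-451a by 0.39 (standard error 0.17). miR-144-3p was at 0.34, and the rows of miR-486 were at -0.13, -0.08 and -0.31, none of them called. miR-451a was at 0.28 without control pool 1, 0.38 without control pool 5 and 0.22 without resilient pool 2, each time not called, and 5 of the 13 other alternatives ended its call as well. miR-144-5p lost its call without control pool 1 or 5 or resilient pool 5, at 0.41 to 0.43, and after removal of a GC trend, at 0.31. The erythroid list summed to 403 to 461 CPM in controls and 424 to 573 CPM in resilient pools, and its part in the other differences was not tested. In bulk tissue, fewer cells of a type and less RNA per cell cannot be told apart.

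miR-30e-5p and miR-384-5p share their seed and were both higher. miR-384-5p was at 9.18 ± 0.32 log2 CPM in controls and 9.69 ± 0.32 in resilient pools (SD, n = 5 each). Resilient pool 3, at 9.12, was far below the other 4, which lay at 9.79 to 9.92. Its call was lost after removal of a GC trend, at a log2 fold change of 0.34. miR-30e-5p, the fold change of which was 0.29 with a standard error of 0.11, lost its call without any of 5 pools, with log2 fold changes of 0.25 to 0.26, as well as with quantile normalization (0.22), without the variance trend (0.29) and after removal of a GC trend (0.19). With depth as a covariate it was 0.46. The 2 remaining rows with this seed and a sequence, miR-30a-5p and one copy of miR-30c-5p, were not called. Of the 11 rows of the miR-30 family, 1 was called, where 9.52% of all miRNAs were.

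miR-15b-5p, of the miR-15/16 family that restrains the cell cycle, was at 4.03, 3.90, 4.14, 4.05 and 3.74 log2 CPM in controls and 4.60, 4.38, 4.43, 4.47 and 4.35 in resilient pools. All resilient pools were above all controls. It rested on 44 to 73 reads per control pool and 76 to 213 per resilient pool. Its log2 fold change was 0.47 with a standard error of 0.20 (limma, adjusted p = 0.32). No other of the 14 family rows was called, where 9.52% of all miRNAs were. Leaving out control pool 2 or 5, or resilient pool 1 or 4, ended the call, with log2 fold changes of 0.41 to 0.47. Removal of a GC trend (0.37) and depth as a covariate (0.35) ended it too.

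Of the 7 rows of the miR-34 family and its relatives 1 was called, and of the 6 miR-99/100 rows 0 were. Of all miRNAs, 9.52% were called. miR-34c-5p ranged widely in both groups, from 9.91 to 12.07 log2 CPM in controls (median 11.45) and from 9.83 to 12.16 in resilient pools (median 10.56). Its log2 fold change of -0.59 had a standard error of 0.42 and was not called. It was -0.93 without control pool 5, -0.96 without resilient pool 1 and -1.16 with depth as a covariate, each called. miR-34b-3p, from the same primary transcript, fell by 1.04 with a standard error of 0.38 (limma, adjusted p = 0.30). Its levels were 6.53 to 8.24 log2 CPM in controls and 5.47 to 7.78 in resilient pools, and without control pool 1 the log2 fold change was -0.85 and not called. It was -1.57 with depth as a covariate. The miR-34 miRNAs and their relatives are also abundant in ciliated cells of the choroid plexus and ependyma. The choroid plexus and ciliated list, which holds these rows, ranged from 12970 to 37161 CPM in controls and from 14266 to 36589 CPM in resilient pools, mostly miR-204-5p, and had 1 called row of 9. Its part in the miR-34 values was not tested. miR-99b-5p was at -0.23 with a standard error of 0.12, and miR-100-5p at -0.15 with a standard error of 0.20, neither called. Without resilient pool 5, miR-99b-5p was at -0.28 and called.

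The Dlk1-Dio3 domain on chromosome 12 is imprinted and encodes the largest group of brain miRNAs. It contributed 97 rows, of which 7 rose and 4 fell, where 3.93% and 5.58% of all miRNAs did, with a median log2 fold change of 0.00. Its 5p rows summed to 41243 to 45370 CPM in controls and 46440 to 52219 CPM in resilient pools. Of these 46 rows 6 rose, as did 25 of all 378 5p rows, and 2 fell. Their median log2 fold change was 0.01, with 24 rows positive and 22 negative, and abundant rows weigh most in such a sum. The 51 3p rows of the domain overlapped between the groups in their sum. miR-369-5p had the smallest p of those that rose, at 8.79, 8.74, 8.69, 8.79 and 8.87 log2 CPM in controls and 9.02, 9.24, 8.92, 9.15 and 9.10 in resilient pools. These values did not overlap, and the log2 fold change was 0.31 with a standard error of 0.09 (limma, adjusted p = 0.22). After removal of a GC trend it was 0.25, under the fold threshold. miR-541-5p, at 14.23 ± 0.10 and 14.52 ± 0.16 log2 CPM (SD, n = 5 each), rose by 0.29. It lost its call without control pool 2, resilient pool 1 or resilient pool 4, at log2 fold changes of 0.25 to 0.26, and with quantile normalization (0.19), GC trend removal (0.22) or depth as a covariate (0.25). miR-485-3p was 1 of the 4 rows of this domain that fell, beside miR-1247-5p, miR-666-3p and miR-673-5p.

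In the neuronal list, 1 of 30 rows rose and 1 fell, where 3.93% and 5.58% of all miRNAs did. miR-128-3p copy 1 fell by 0.30 with a standard error of 0.12, while copy 2, with the same mature sequence, was at 0.06. With the reads of the copies summed, miR-128-3p was at -0.26, just under the fold threshold, and was not called. The call of copy 1 was lost without control pool 4 or 5 or resilient pool 1, at log2 fold changes of -0.24 to -0.23, and with depth as a covariate (-0.28), voom run anew (-0.25) or no variance trend (-0.30). miR-218-5p copy 2, with a log2 fold change of 0.46 and a standard error of 0.21, lost its call without any of 8 of the 13 libraries, at 0.33 to 0.46, and in 4 further alternatives. The sum of the miR-218-5p copies was at 0.49 and was called. The miR-181 family had 1 called row of 8, miR-181d-5p (0.27, standard error 0.10), and the miR-148 family 1 of 6, miR-148b-5p (0.42, standard error 0.18). miR-181d-5p was not called without control pool 4, resilient pool 1 or resilient pool 4, at 0.20 to 0.24, nor was miR-148b-5p without control pool 1, 2 or 4 or resilient pool 5, at 0.34 to 0.40. Removal of a GC trend ended both calls, at 0.20 and 0.33. No row was called among miRNAs of oligodendrocytes (6 rows), epithelium (6), muscle (3) or the Hox clusters (2), nor in the miR-99/100 (6), miR-125 (6), miR-17/92 (20) and miR-29 (7) families. The stress-related list (13 rows) had none either, where 9.52% of all miRNAs were called.

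**Figure D4:**
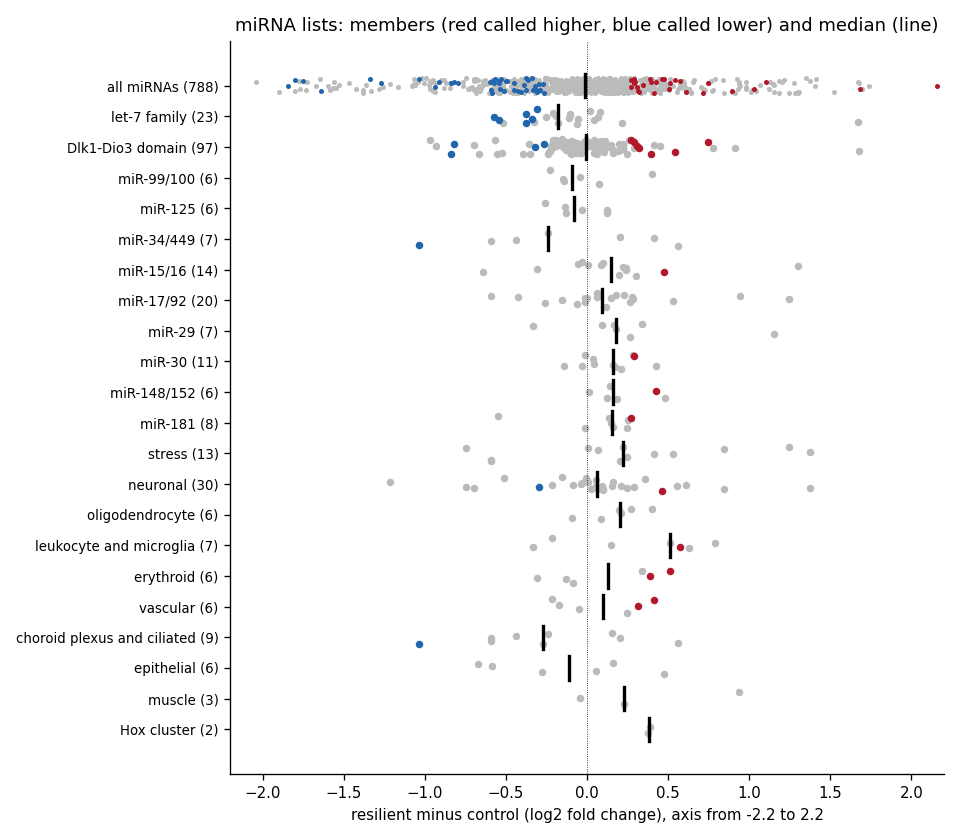
Log2 fold change of resilient against control pools for the members of each miRNA list (points, number of rows in brackets; red called higher, blue called lower) and the median of each list (black line), on an axis from -2.2 to 2.2 beyond which 6 rows lie. The let-7 list has a median of -0.18 with 6 blue points and 0 red, and the Dlk1-Dio3 list has a median of 0.00 with 7 red and 4 blue points.

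The largest fold changes were those of miRNAs with very few reads. Of the 14 called rows under 2 log2 CPM, miR-7013-5p had 6 reads in total in the control pools (0 in 3 of them) and 71 in the resilient pools, between 8 and 22 per pool. miR-1960 had 3 reads in the controls and 49 in the resilient pools. miR-6932-5p had 4 reads, all in control pool 1, against 44. The resilient libraries were deeper, and reads without molecular identifiers cover counting error only, so no fold is given for these miRNAs. miR-677-5p, at 16 to 63 reads per control pool and 74 to 223 per resilient pool, was called at a log2 fold change of 0.90, which was 0.61 and not called without control pool 1.

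The called miRNAs differed in base composition. The median GC content of the mature sequence was 41.3% for the 28 higher rows with a sequence and 59.1% for the 41 lower rows, against 50% for all 686. At levels of 5 log2 CPM or more, 0 of 17 higher rows and 20 of 30 lower rows had a GC content of 50% or more. The median log2 fold change fell from 0.14 for the 65 such miRNAs at 35 to 45% GC to -0.17 for the 36 at 65% or above. In susceptible pools against the same controls these medians were 0.05 and -0.07. Within each library the level itself declined with GC content, by 0.39 to 0.62 log2 units per 10 percentage points in control pools and by 0.50 to 0.69 in resilient pools. The slopes of the groups overlapped (exact permutation p = 0.087, n = 5 each). Their part in the differences between groups was not tested.

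The let-7 rows had a median GC content of 40.9%, below that of all miRNAs, and 6 of them were called lower. When a linear GC trend was removed from each library, a step chosen after the data had been seen, 7 of the 686 miRNAs passed an adjusted p of 0.05 with limma. Of these, 6 were let-7 rows (let-7d-3p, both copies of let-7c-5p, let-7e-5p and the first copies of let-7a-5p and let-7f-5p), and the other was miR-485-3p. By its construction this step makes the fold changes of AU-rich miRNAs more negative here, and that of let-7e-5p went from -0.37 to -0.47.

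**Figure D5:**
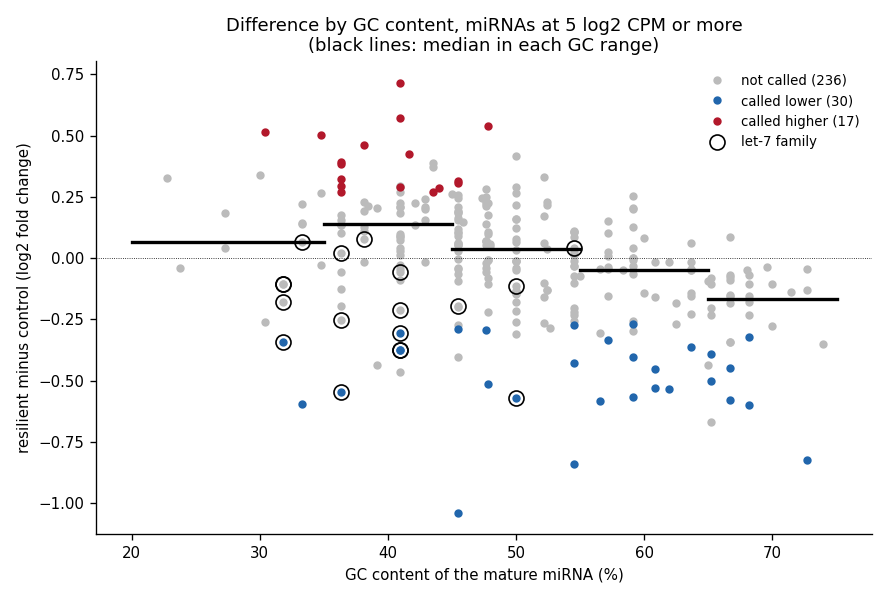
GC content of the mature miRNA (x, %) against the log2 fold change of resilient from control pools (y) for the 283 miRNAs with a sequence and a mean of 5 log2 CPM or more, with the median in each GC range as a black line. All 17 red points (called higher) lie below 50% GC, 20 of 30 blue points (called lower) at 50% or above, and the ringed let-7 rows lie mostly below 0 at low GC content.

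Susceptible pools shared the control pools with the comparison above, so their values are given side by side only. The 75 rows were selected on the resilient pools, which favours larger values there and also raises the number of differences from susceptible pools. Of the 31 rows higher in resilient pools, 5 were also called higher in susceptible pools, where 1.52% of all rows were, and of the 44 lower rows 7 were called lower, where 3.17% were. The median log2 fold change of the 31 rows was 0.50 in resilient and 0.22 in susceptible pools, and that of the 44 rows was -0.54 and -0.30. Directly compared, 12 of these 75 rows differed between susceptible and resilient pools at p under 0.05 and 1.2-fold, where 3.93% of all rows did, a count to which that selection contributes, and 0 of the 788 did after adjustment with limma (36, or 4.57%, at an unadjusted p under 0.05). Besides miR-485-3p, the smallest p was that of let-7c-5p copy 1, which was 0.48 higher on the log2 scale in susceptible than in resilient pools (standard error 0.12, limma, adjusted p = 0.30). Among rows called in both defeated groups, miR-15b-5p and miR-144-5p were higher, at 0.51 and 0.63 in susceptible pools, and miR-34b-3p was lower, at -1.58. The susceptible pools of miR-15b-5p lay at 4.08, 4.42 and 4.95 log2 CPM, the lowest of them within the control range. miR-34c-5p and miR-99b-5p, not called in resilient pools, were called lower in susceptible pools, at -1.28 and -0.48.

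The AGO2 differences were set beside those in blood cells of B6 mice of the same phenotypes (5 resilient and 5 control), of which 299 miRNAs were in the deposited table and 5.35% were called. Of the rows called in the BNST, 22 higher and 11 lower ones were in the blood table, and 0 of them were called there. The median blood log2 fold change was 0.02 for the former and 0.07 for the latter, against -0.01 for all 230 rows in both tables. After adjustment with limma, 0 blood miRNAs remained, and 18 (6.02%) had an unadjusted p under 0.05. miR-34c-5p, not called in the BNST, was at -1.31 in resilient blood (unadjusted p = 0.043).

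Of all 16587 genes in the AGO2 mRNA data of the same groups, 8.65% were called higher and 9.04% lower in resilient pools. These mRNAs were described by whether their longest annotated 3′ UTR held the 8-base seed match of a miRNA. Of the 13937 genes with such a UTR (GENCODE M21), 8.20% were higher and 10.1% lower in resilient pools against controls, with a median log2 fold change of -0.03. The miR-485-3p match GTATGACA was in 259 of them (5.41% higher, 9.65% lower, median -0.06). The let-7d-3p match TCGTATAA was in 42 genes (4.76% higher, 9.52% lower, median -0.11). The match of miR-15b-5p, TGCTGCTA, was in 740 genes, with a median of -0.03, and those of miR-99b-5p and miR-126a-3p were in 42 and 16 genes. For the let-7 seed, added after the miRNA values had been seen, the match CTACCTCA was in 620 genes, of which 10.3% were higher and 5.97% lower, with a median of 0.04. With the 7-base match CTACCTC, 8.24% of 1699 genes were higher and 7.77% lower, at a median of 0.00. These shares are descriptions, since genes with a common UTR match are not independent, and binding of a given miRNA to them was not measured.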

How the data were processed

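Small RNA bound to AGO2 was sequenced from BNST pools of 3 mice. Per the methods, the authors trimmed reads with the FastX toolkit, counted miRBase v21 miRNAs with miRDeep2 and bowtie (version 1.1.1 in the submitters' processing notes) on GRCm38, kept miRNAs at 1 CPM in at least 3 samples and transformed counts with voom. The deposited log2 values are log2 CPM with 0.5 reads added, and reads recovered from them were whole within 0.0001 reads. The authors' later correction for surrogate variables is not in these values and was not repeated.

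The deposited values of all 13 AGO2 miRNA libraries were fitted in 1 model with limma 3.58.1 (R 4.3.3), with a mean-variance trend. Calls required p under 0.05 and a 1.2-fold change, and the Benjamini-Hochberg adjustment ran over 788 rows, of 772 mature miRNAs. Tests were two-sided. Fits of the 15 B6 blood libraries and of the AGO2 mRNA used the same steps, the latter without the adjustment for experimental cohort that the authors made. The procedure was tested on simulated data.

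Named miRNAs were those at an adjusted p under 0.05, the 12 higher and 12 lower called rows with the smallest p, the miRNAs the study names in this tissue, up to 3 called rows per list, and the 5 most abundant. Members and lists were chosen with earlier results of these data known. The labels do not give the cohort of a pool, so p-values measure only the spread between these pools, which may be partly technical. Total RNA, protein, D2 and human data were not used here.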

Additional observations from a re-analysis of the deposited data

Results flagged for a closer look

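Some values stood far from the rest of their group, by a gap to the nearest pool that took up more than 0.71 of the group's range. Control and resilient pools of the 40 named miRNAs were screened. Chance flags about 1 in 20 groups of this size, so a few flags would arise by chance alone. They were miR-384-5p in resilient pool 3 (9.12 log2 CPM), miR-6932-5p in control pool 1 (0.24), miR-181d-5p in control pool 4 (10.90) and miR-451a in resilient pool 2 (7.99). Resilient pool 3 was the lowest resilient pool for 17 of the 31 higher rows, where each other resilient pool was for 2 to 5. It was the highest for 18 of the 44 lower rows, where each other was for 4 to 9. Control pool 3 was the highest control for 16 of the 31, where each other control pool was for 1 to 6. These rows were selected on the difference between the groups. Without resilient pool 3, 93 rows were called, 43 higher and 50 lower.

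Differences between susceptible and resilient pools, tested directly in the same model, passed p under 0.05 and 1.2-fold for 9 named miRNAs, none after adjustment with limma over 788 rows (36 rows had an unadjusted p under 0.05). On the log2 scale, susceptible pools were higher for miR-485-3p (0.60), let-7c-5p copy 1 (0.48), miR-345-3p (0.38), miR-328-3p (0.31), let-7d-3p (0.31) and miR-128-3p copy 1 (0.30). They were lower for miR-146b-5p (-0.50), miR-384-5p (-0.39) and miR-126a-5p (-0.35). These miRNAs were named for their difference between resilient and control pools, so the resilient pools were bound to stand further from controls.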

How the results depend on the processing

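All 75 calls kept their direction in every alternative that tested them, but not always their call: from 41 (log2 reads per library as a covariate, chosen after seeing the data) to 75 of them were called again. The number of calls ranged from 65 to 93 when 1 library was left out, and those at an adjusted p under 0.05 from 2 to 5. With array weights 4 passed the adjusted threshold, with the compared groups only 6, and after removal of the GC trend 7. That GC step also left 15 higher and 39 lower rows, and the depth covariate 40 and 39. miR-485-3p and let-7d-3p passed the adjusted threshold in every fit run. The median difference of all miRNAs stayed within 0.04 log2 units of 0. Of the 33 named rows that were called, 20 kept their call in all 13 fits without 1 library.

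Replicate numbers are not stated to pair pools, and same-numbered pools did not deviate together (correlations from -0.10 to 0.07, none the best partner). With the replicate block 72 rows were called, 2 at an adjusted p under 0.05. For susceptible against control pools, leaving out 1 library gave 31 to 51 calls, with 0 to 6 after adjustment. For susceptible against resilient pools it gave 22 to 81 calls and 0 to 1 after adjustment (without susceptible pool 4, 81), and array weights gave 56 calls and 1. Blood gave 8 to 26 calls without 1 library, 0 after adjustment, and 26 with array weights. For AGO2 mRNA, 2336 to 4309 genes were called without 1 library, 23 to 1949 of them after adjustment, and 13 passed adjustment without the variance trend. Depth limits rows under 2 log2 CPM, whose median was 6.5 reads.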
